A study of Mus musculus with 12 samples.

Results

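Voltage-gated sodium and calcium channels were described here through every measured gene whose symbol starts with Cacna, Cacnb or Cacng, or with Scn and a digit, which gave 36 of the 15397 genes in the deposited table: 11 sodium channel genes and 25 calcium channel genes. RNA had been sequenced from the dissected striatum of C57BL/6 mice of the wild-type and R6/2 genotypes, each given vehicle or PLX3397, to ask what the loss of microglia does in mice that model Huntington's disease. R6/2 mice carry a transgene with a fragment of mutant huntingtin, and PLX3397 inhibits Csf1r, the receptor on which microglia depend for survival. The 4 groups were wild type on vehicle, wild type on PLX3397, R6/2 on vehicle and R6/2 on PLX3397, with n = 3 mice in each, and the drug was given in chow at 275 ppm between weeks 7 and 11 of age. The sex of the mice is not given in the sources used here.

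Sodium channels open on depolarization and carry the upstroke of the action potential, and calcium channels turn depolarization into calcium entry that drives transmitter release, gene expression and firing patterns. A sodium channel has a pore-forming alpha subunit, encoded by an Scn gene with a number and the letter a, and beta subunits, whose symbols end in the letter b, that set its gating and its place in the membrane. A calcium channel pore, encoded by a Cacna1 gene, binds a cytoplasmic beta subunit (Cacnb) and an extracellular alpha2delta subunit (Cacna2d), while most Cacng genes encode TARPs, which escort AMPA-type glutamate receptors to the synapse. In the striatum the projection neurons are rich in Scn4b, whose cytoplasmic tail blocks open channels and permits resurgent sodium current.

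Sequences upstream of the transcription start were read for 3 members. Scn4b and Cacna2d2 were taken because their values differed between the groups in unlike ways. Scn2b, which lies next to Scn4b, was added after its values were seen. The sequences are from RefSeq on build GRCm38.p6, each runs from 250 bases before to 50 bases after an annotated start, and all 3 read along the plus strand. The window of Scn4b was at chr9:45138374-45138673, that of Scn2b at chr9:45117626-45117925 and that of Cacna2d2 at chr9:107399630-107399929. Capitals mark a CCAAT box read on the other strand (ATTGG) in Scn4b and a GC box (GGGCGG) in Cacna2d2.
Scn4b: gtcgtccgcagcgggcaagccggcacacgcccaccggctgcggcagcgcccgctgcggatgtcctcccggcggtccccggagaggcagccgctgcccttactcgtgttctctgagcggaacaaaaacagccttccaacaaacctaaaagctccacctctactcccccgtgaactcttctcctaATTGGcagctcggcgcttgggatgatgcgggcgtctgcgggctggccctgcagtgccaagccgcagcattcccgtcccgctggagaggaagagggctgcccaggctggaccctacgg
Scn2b: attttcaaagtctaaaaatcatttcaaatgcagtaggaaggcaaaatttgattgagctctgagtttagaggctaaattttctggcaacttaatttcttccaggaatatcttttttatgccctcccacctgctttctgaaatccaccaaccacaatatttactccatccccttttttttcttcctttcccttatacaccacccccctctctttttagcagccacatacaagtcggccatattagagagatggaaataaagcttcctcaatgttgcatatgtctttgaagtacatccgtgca
Cacna2d2: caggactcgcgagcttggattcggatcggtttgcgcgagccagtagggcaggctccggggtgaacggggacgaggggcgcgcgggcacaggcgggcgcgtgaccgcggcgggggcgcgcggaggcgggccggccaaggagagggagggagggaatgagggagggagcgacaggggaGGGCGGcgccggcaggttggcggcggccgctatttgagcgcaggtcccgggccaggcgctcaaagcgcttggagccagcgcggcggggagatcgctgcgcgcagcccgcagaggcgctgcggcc

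The Scn4b window held 26 CpG dinucleotides at 66.3% GC, and that of Cacna2d2 held 43 at 75.7% GC. By contrast the Scn2b window held 2 CpG at 38.3% GC, although the genes are neighbours on the chromosome. Motifs were searched on both strands, namely the GC box GGGCGG, the TATA box TATAAA, the CCAAT box CCAAT, the cAMP response core TGACG and the E-box CANNTG. Scn4b had 1 CCAAT box, 67 bases before the start, and Cacna2d2 had 1 GC box, 74 bases before the start used for its window. That start lies downstream of the first base of the Cacna2d2 gene as given below, so the GC box lies within the gene span. Scn2b had 3 E-boxes, left in lower case, and none of the other motifs. Among 32851 mouse windows of the same length 35.7% held a GC box, 13.6% a TATA box, 37.4% a CCAAT box, 20.8% the cAMP response core and 72.3% an E-box. Of the 36 members 26 had a window in the table (37 windows), with 2 to 63 CpG and a median of 11, against a median of 7 over all windows. A GC box was in 15 of the 37 windows, a CCAAT box in 9, the cAMP response core in 5, a TATA box in 2 and an E-box in 25.

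Expression is given as log2 CPM (reads scaled to library size, on a log2 scale, as deposited), and levels of different genes are compared only as RPKM, which also divides by transcript length. Libraries of 18902120 to 24293208 reads in genes lie behind these values. Differences between groups are log2 differences ± SE with n = 3 mice per group, tested with limma, and a call means an adjusted p under 0.05 (Benjamini-Hochberg, over all 15397 genes). Each p-value sets a group difference against the spread between mice within groups, pooled over all 4 groups, so libraries outside a comparison also bear on its calls. Csf1r, the drug's target receptor and a microglial marker, was at 6.62 to 7.16 log2 CPM in the vehicle libraries and -1.04 to 1.65 on PLX3397. Some libraries stood apart in genes of neighbouring regions. Slc17a7, which loads glutamate into vesicles of cortical cells, reached only 2.79 and 3.06 log2 CPM in 2 of the R6/2 mice on PLX3397 (libraries 1 and 2), 5.67 in 1 wild-type mouse on the drug (library 1) and 7.30 to 9.86 elsewhere. Ttr, a choroid plexus transcript, reached 12.1 log2 CPM in R6/2 vehicle library 1 and 9.89 in library 1 of wild type on the drug (together the choroid-high pair), against 4.01 to 6.09 in the others. The 12 markers of thalamus, septum and pallidum summed to 232 to 496 CPM in wild type on vehicle and 94.3 to 306 in R6/2 on vehicle. On PLX3397 these sums were 78.6 to 410 in wild type and 124 to 429 in R6/2. The 16 striatal projection neuron markers, all measured and none at 0 reads in any library, summed to 4108 to 11006 CPM in wild type on vehicle and 1041 to 2386 in R6/2 on vehicle, and to 7967 to 18057 and 1066 to 3244 on PLX3397. Their part in the results below was not tested, and in bulk tissue fewer cells of a type and less RNA per cell cannot be told apart.

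Averaged over the 12 libraries, Scn4b was the most abundant member per length. It averaged 156 RPKM, its neighbour Scn2b 78.5 and Scn3b, another beta subunit, 37.8. Among the pore-forming subunits Scn2a (32.2 RPKM), Scn8a (27.9) and Scn1a (19.8), the principal brain sodium channels, were well above Scn3a (7.04), Scn9a (1.24) and Scn7a (0.490). Calcium channel pores were led by Cacna1a, the P/Q-type pore of nerve terminals, at 18.8 RPKM and Cacna1e, the R-type pore, at 15.8, while the L-type pores Cacna1d and Cacna1c were at 6.70 and 5.06. Cacnb3 led the calcium channel beta subunits at 64.6 RPKM, Cacna2d3 the alpha2delta subunits at 50.5 and Cacng7 the TARPs at 30.2. Counting was thin for Cacng1 (0 to 59 reads per library), Cacng6 (2 to 78), Cacna1s (12 to 34), Scn7a (17 to 150) and, in some libraries, Scn9a (19 to 1603). Scn4a, Scn10a, Scn11a and Cacna1f were not analysed here.

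Without the drug, R6/2 mice carried less striatal RNA of Scn4b, the resurgent-current subunit, of Cacna2d2, an alpha2delta subunit that raises channel density at the membrane, and of the gamma subunit genes Cacng4, a TARP, and Cacng1, the gamma subunit of the muscle channel. Scn4b was 14.6-fold lower and Cacna2d2 2.54-fold lower than in wild type. These 4 were the called members, 0 higher and 4 lower of 36, where 2.11% of all genes were called, 0.617% higher and 1.49% lower. The median difference of the members was -0.54, against 0.01 over all genes, and 27 of 36 lay below 0. The question this comparison addresses is what the transgene changes without the drug.

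Scn4b (chromosome 9, 45138624 to 45154155 on GRCm38, a protein-coding gene with NCBI ID 399548) was at 10.003, 10.71 and 8.87 log2 CPM in wild type on vehicle and at 4.76, 6.64 and 6.58 in R6/2 on vehicle. On PLX3397 it was at 11.63, 9.73 and 10.70 in wild type and 4.88, 6.90 and 6.53 in R6/2. All 6 R6/2 libraries lay below all 6 wild-type libraries, with an SD within groups of 0.93 to 1.08. It fell by 3.87 ± 0.70 on vehicle (limma adjusted p = 0.0310) and fell by 4.59 ± 0.70 on PLX3397 (adjusted p = 0.00134, 24.0-fold). With both treatments averaged it fell by 4.23 ± 0.50 (adjusted p = 0.000482, 18.8-fold). PLX3397 itself gave no called difference in Scn4b: it was 0.82 ± 0.70 in wild type (95% interval -0.73 to 2.37, adjusted p = 0.433) and 0.11 ± 0.70 in R6/2 (-1.44 to 1.66, adjusted p = 0.955). The averaged call held in 21 of 21 alternative analyses. The vehicle call ended without wild-type vehicle library 1 or 2 or any 1 of the R6/2 vehicle libraries (adjusted p 0.0572 to 0.140), and without the choroid-high pair (difference -3.26, adjusted p = 0.0547). The PLX3397 call ended without R6/2 PLX3397 libraries 1 and 2 together (difference -4.16, adjusted p = 0.0585). Ppp1r1b, the DARPP-32 gene of projection neurons, moved with it, at 9.07 to 11.4 log2 CPM in wild type and 6.14 to 8.42 in R6/2.

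**Figure D1:**
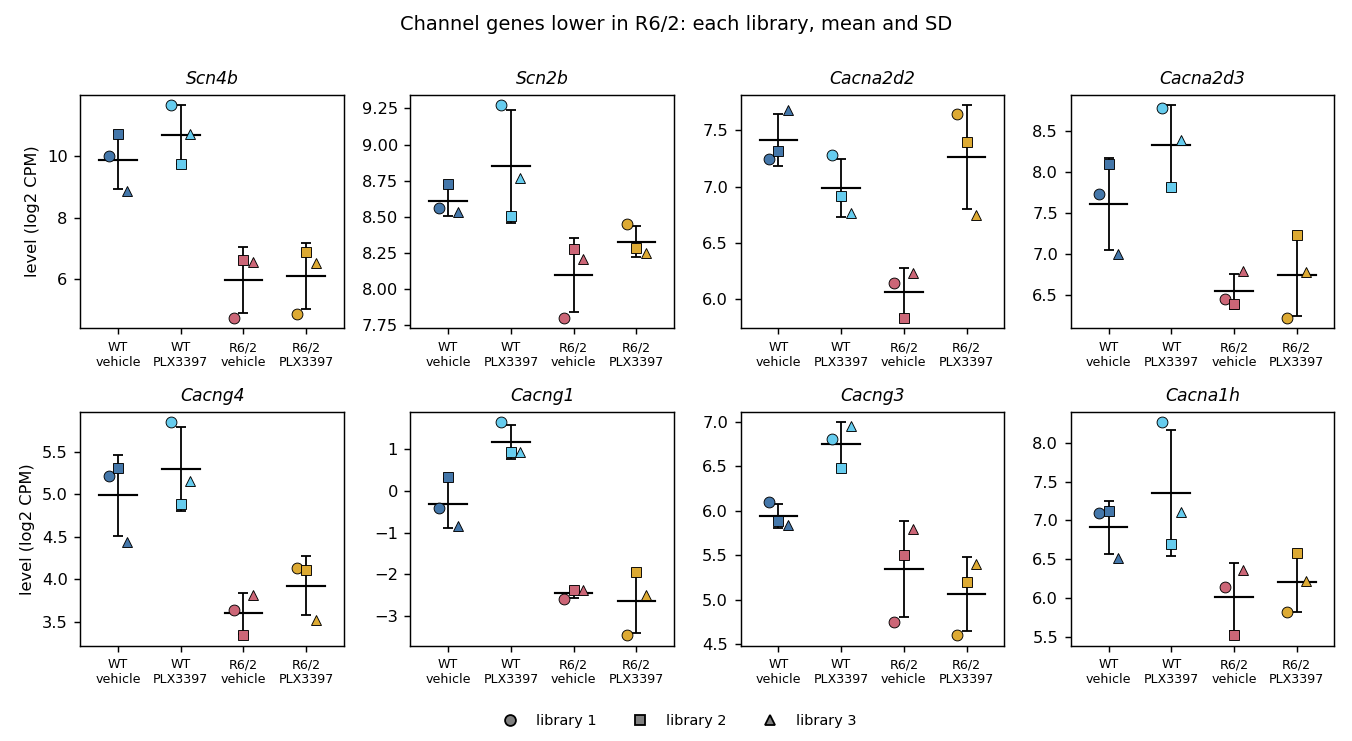
Log2 CPM (vertical axes) of 8 channel genes in each of the 12 libraries (points) by group (horizontal axes), with the group mean and SD. Scn4b lies at 8.87 to 11.63 in wild type and 4.76 to 6.90 in R6/2, with or without PLX3397, whereas Cacna2d2 is low only in R6/2 on vehicle (5.84 to 6.23).

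Scn2b, a beta subunit held to the pore by a disulfide bond, which lies 8553 bases from Scn4b (gene 72821, chromosome 9, 45117876 to 45130070), differed by far less. It was at 8.56, 8.73 and 8.54 log2 CPM in wild type on vehicle, 9.27, 8.51 and 8.77 in wild type on PLX3397, 7.80, 8.27 and 8.21 in R6/2 on vehicle and 8.45, 8.28 and 8.25 in R6/2 on PLX3397. The 6 R6/2 libraries were again all below the 6 wild-type ones, but by a small margin. Scn2b, averaged over the drug, fell by 0.52 ± 0.14 (limma adjusted p = 0.0204), a call that ended without wild-type vehicle library 2 (0.0520) and without R6/2 PLX3397 libraries 1 and 2 together. Within a library, the level of Scn4b minus that of Scn2b, both in log2 RPKM, was 1.16 ± 0.84 (SD, n = 3) in wild type on vehicle and 1.74 ± 0.57 on PLX3397, and -2.20 ± 0.81 and -2.32 ± 1.18 in R6/2. The sign of that difference was the same in every library of a genotype.

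Scn3b gave no called difference in any comparison, and stayed between 6.94 and 7.64 log2 CPM in all 12 libraries. Per length, Scn4b went from a mean of 212 RPKM in wild type on vehicle to 14.9 RPKM in R6/2 on vehicle.

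**Figure D2:**
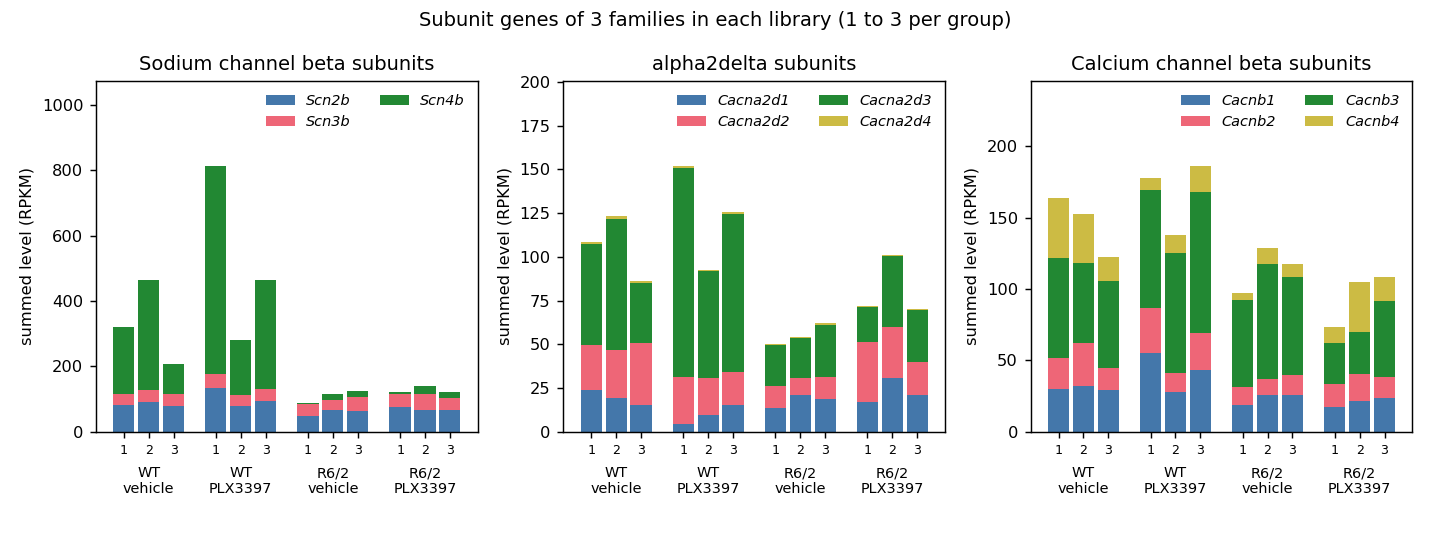
RPKM of each named subunit gene (stacked, vertical axes) in each of the 12 libraries, numbered within the 4 groups (horizontal axes), for 3 sodium channel beta, 4 alpha2delta and 4 calcium channel beta subunit genes. Scn4b is the tallest part in wild type, with a mean of 212 RPKM on vehicle, and a thin one in R6/2, with a mean of 14.9 RPKM on vehicle.

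Cacna2d2 (gene 56808, chromosome 9, 107399733 to 107529346) differed from Scn4b in that its vehicle difference was not seen on the drug. It was at 7.24, 7.32 and 7.68 log2 CPM in wild type on vehicle and at 6.14, 5.84 and 6.23 in R6/2 on vehicle. With PLX3397 it was at 7.28, 6.92 and 6.77 in wild type and at 7.64, 7.39 and 6.75 in R6/2. The R6/2 vehicle libraries lay below all 9 others, and the remaining groups overlapped. In R6/2 on vehicle it fell by 1.34 ± 0.23 (limma adjusted p = 0.0273), and with PLX3397 it rose in R6/2 by 1.19 ± 0.23 (adjusted p = 0.0292), or 2.28-fold. In wild type the drug difference was -0.42 ± 0.23 (adjusted p = 0.212). The interaction, the drug's difference in R6/2 less that in wild type, was 1.62 ± 0.32 (adjusted p = 0.0156), and R6/2 on PLX3397 was 0.27 ± 0.23 above wild type on PLX3397 (95% interval -0.23 to 0.78, adjusted p = 0.365). Cacna2d2, averaged over the drug, fell by 0.53 ± 0.16 (adjusted p = 0.0362), and that call ended with any of 9 of the 12 libraries left out (0.0515 to 0.0879), the exceptions being wild-type PLX3397 library 3, R6/2 vehicle library 1 and R6/2 PLX3397 library 1. The vehicle and R6/2 drug comparisons share the R6/2 vehicle libraries.

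For the drug in R6/2, Cacna2d2 was the only called member, 1 higher and 0 lower of 36, where 1.1% of all genes were called, 0.0585% higher and 1.04% lower. The interaction call for Cacna2d2 held in 20 of 21 alternatives, among them each of the 12 with 1 library left out. It ended without R6/2 PLX3397 libraries 1 and 2 together (1.10, adjusted p = 0.235), where 1 library of that group remained. The vehicle call ended without wild-type vehicle library 1 or 2 or any 1 R6/2 vehicle library (adjusted p 0.0530 to 0.114), and without the choroid-high pair (-1.38, 0.0508). The drug call in R6/2 ended without wild-type vehicle library 2 (0.0548), R6/2 vehicle library 1 (0.0860), 2 (0.135) or 3 (0.0724), or R6/2 PLX3397 library 1 (0.147) or 2 (0.150), and without the choroid-high pair (1.23, 0.0790) or the R6/2 PLX3397 pair (0.68). With the R6/2 PLX3397 pair left out, library 3 alone stood for that group. Markers of cholinergic interneurons, all 7 measured and none at 0, moved in the same direction with overlap: their sum was 192 to 218 CPM in wild type on vehicle, 75.4 to 151 in R6/2 on vehicle and 122 to 260 in R6/2 on PLX3397, with 6 of 7 called lower on vehicle, 3 called higher with the drug in R6/2 and 4 higher in the interaction. The 9 GABA interneuron markers, none at 0, summed to 318 to 454 CPM in R6/2 on vehicle, below all 9 other libraries, against 956 to 1016 in wild type on vehicle, 507 to 900 in wild type on PLX3397 and 510 to 926 in R6/2 on PLX3397, with 1 of 9 called lower on vehicle, 0 called with the drug in R6/2 and 1 higher in the interaction. Of all genes 1.49% were called lower on vehicle, 0.0585% higher with the drug in R6/2 and 9.29% higher in the interaction. In R6/2 on PLX3397, libraries 1, 2 and 3 had cholinergic sums of 260, 227 and 122 CPM and GABA sums of 911, 926 and 510. The GABA list includes Gad2, and both sums weight abundant genes most. The part of either list in the Cacna2d2 result was not tested.

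The remaining alpha2delta genes followed other patterns. Cacna2d3, the most abundant of them, was at 7.74, 8.11 and 7.00 log2 CPM in wild type on vehicle, 8.79, 7.83 and 8.39 in wild type on PLX3397, 6.45, 6.39 and 6.79 in R6/2 on vehicle and 6.22, 7.23 and 6.78 in R6/2 on PLX3397. It fell by 1.59 ± 0.33 in R6/2 on PLX3397 (limma adjusted p = 0.00533) and by 1.33 ± 0.23 averaged over the drug (adjusted p = 0.00348), and the averaged call held in 21 of 21 alternatives. On vehicle its groups did not overlap either, with a difference of -1.07 ± 0.33 that was not called (adjusted p = 0.103). Cacna2d1, the gabapentin-binding subunit, was at 7.46, 7.17 and 6.84 log2 CPM in wild type on vehicle, 5.05, 6.18 and 6.81 in wild type on PLX3397, 6.68, 7.29 and 7.10 in R6/2 on vehicle and 6.98, 7.84 and 7.29 in R6/2 on PLX3397. Its lowest 2 libraries were from wild type on PLX3397, the third of that group overlapped R6/2 on vehicle, and on the drug Cacna2d1 was 1.36 ± 0.39 higher in R6/2 (adjusted p = 0.0206). That difference fell to 0.87 without wild-type PLX3397 library 1, and the call ended without R6/2 PLX3397 library 2 (0.0786). Cacna2d4, a retinal subunit of low abundance (0.832 RPKM), was at 2.37, 3.32 and 2.68 log2 CPM in wild type on vehicle, 2.41, 2.20 and 2.49 in wild type on PLX3397, 1.64, 1.42 and 2.23 in R6/2 on vehicle and 1.98, 1.87 and 1.95 in R6/2 on PLX3397. Its genotypes overlapped by a narrow margin, and it fell by 0.73 averaged over the drug (adjusted p = 0.0217), a call that ended without R6/2 vehicle library 2 (0.0549).

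The share of alpha2delta RPKM that came from Cacna2d2 was 29.0% ± 10.2 (SD, n = 3) and 18.3% ± 3.81 in wild type on vehicle and PLX3397, and 21.1% ± 3.03 and 34.2% ± 11.6 in R6/2. That of Cacna2d3 was 51.4% ± 10.4 and 72.5% ± 6.35 in wild type and 45.8% ± 3.35 and 36.9% ± 7.85 in R6/2. Cacna2d3 was therefore the largest part in the mean of every group, by a narrow margin in R6/2 on PLX3397.

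Cacng4 and Cacng1, which lie 15880 bases apart on chromosome 11, were the other members called on vehicle. Cacng4 was at 5.22, 5.31 and 4.44 log2 CPM in wild type on vehicle, 5.85, 4.89 and 5.15 in wild type on PLX3397, 3.64, 3.35 and 3.82 in R6/2 on vehicle and 4.14, 4.12 and 3.52 in R6/2 on PLX3397. No R6/2 library reached a wild-type one. Cacng4 fell by 1.39 ± 0.30 on vehicle (limma adjusted p = 0.0431, 2.61-fold), by 1.37 on PLX3397 (0.00630) and by 1.38 averaged over the drug (0.00176). Cacng1 had 12, 26 and 11 reads in wild type on vehicle, 59, 42 and 37 in wild type on PLX3397, 2, 2 and 2 in R6/2 on vehicle and 0, 4 and 2 in R6/2 on PLX3397. Every R6/2 library held fewer of its reads than every wild-type library, and its fitted differences depend on the prior count added to each value, so they are given only as calls (adjusted p = 0.0481 on vehicle, 0.000635 on PLX3397 and 0.000402 averaged over the drug). The averaged calls of both genes held in 21 of 21 alternatives. The vehicle calls of both ended without wild-type vehicle library 1 or 2, any 1 R6/2 vehicle library or wild-type PLX3397 library 3. Cacng4 was also lost without R6/2 PLX3397 library 1 or 2, and Cacng1 without wild-type PLX3397 library 2 or R6/2 PLX3397 library 3, with adjusted p of 0.0543 to 0.191 and 0.0562 to 0.211 over those libraries. The vehicle call of Cacng1 itself depended on the prior, and ended with a prior of 0.5 read (limma adjusted p = 0.0800). It also ended with only the groups compared (0.0626). Under limma-voom the vehicle calls of both genes ended (Cacng1 0.0866, Cacng4 0.0676). The same held without the choroid-high pair (0.0937 and 0.0647). Cacng5, 79897 bases beyond Cacng4, was not called in any comparison.

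Among the TARPs, Cacng3 was at 6.10, 5.88 and 5.84 log2 CPM in wild type on vehicle, 6.81, 6.48 and 6.96 in wild type on PLX3397, 4.75, 5.50 and 5.80 in R6/2 on vehicle and 4.60, 5.20 and 5.40 in R6/2 on PLX3397. All R6/2 values were below all wild-type values, closely so on vehicle, and Cacng3 fell by 1.68 ± 0.27 on PLX3397 (limma adjusted p = 0.00162) and by 1.14 averaged over the drug (adjusted p = 0.00282, held in 21 of 21 alternatives). Cacng7, the most abundant TARP, was at 6.07, 5.77 and 5.95 log2 CPM in wild type on vehicle, 5.90, 5.48 and 5.88 in wild type on PLX3397, 5.97, 6.61 and 6.20 in R6/2 on vehicle and 6.12, 6.14 and 6.38 in R6/2 on PLX3397. It was 0.40 ± 0.13 higher in R6/2 averaged over the drug (adjusted p = 0.0434), and this call ended with any of 10 of the 12 libraries left out (0.0503 to 0.101), the exceptions being wild-type PLX3397 library 1 and R6/2 vehicle library 1. Cacng8, which lies between Cacng7 and Cacng6 on chromosome 7, was at 5.65, 5.79 and 5.69 log2 CPM in wild type on PLX3397 and 5.02, 5.35 and 5.43 in R6/2 on PLX3397, and at 5.23, 5.44 and 5.70 and 5.68, 5.63 and 5.60 on vehicle. It was lower by 0.44 in R6/2 on PLX3397 (adjusted p = 0.0338), a call that ended without drug-treated wild-type library 2 or 3 or drug-treated R6/2 library 1 or 2 (0.0614 to 0.129) and turned to 0.17 (adjusted p = 0.386) once a trend with transcript GC and length was removed. Cacng6, the more abundant of the non-TARP gamma genes, was at 2.04, 1.64 and 0.63 log2 CPM in wild type on vehicle, 2.04, 1.03 and -2.40 in wild type on PLX3397, 1.07, 0.14 and 0.47 in R6/2 on vehicle and -0.60, -2.51 and 0.82 in R6/2 on PLX3397. Those values overlapped between the groups on the drug, and Cacng6 was not called.

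Counted over all members on vehicle, 17 of 36 had R6/2 libraries entirely below the wild-type ones and 1 had them above, where 17.1% and 16.4% of all genes lay so. By role, the lower ones were 3 of 7 sodium pores, 2 of 4 sodium beta subunits, 3 of 4 alpha2delta subunits, 3 of 4 calcium beta subunits, 3 of 6 TARPs, 1 of 2 other gamma subunits, and 1 of 3 L-type, 0 of 3 Cav2 and 1 of 3 T-type pores. Averaged over the drug, where 6 libraries stood against 6, the non-overlapping members were Scn4b, Scn2b, Cacnb1, Cacng1, Cacng3 and Cacng4, all lower (4.38% of all genes), and 0 were higher (2.9%). In that average 14 of 36 members were called, 3 higher and 11 lower, where 22.4% of all genes were called, 10.5% higher and 11.9% lower.

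**Figure D3:**
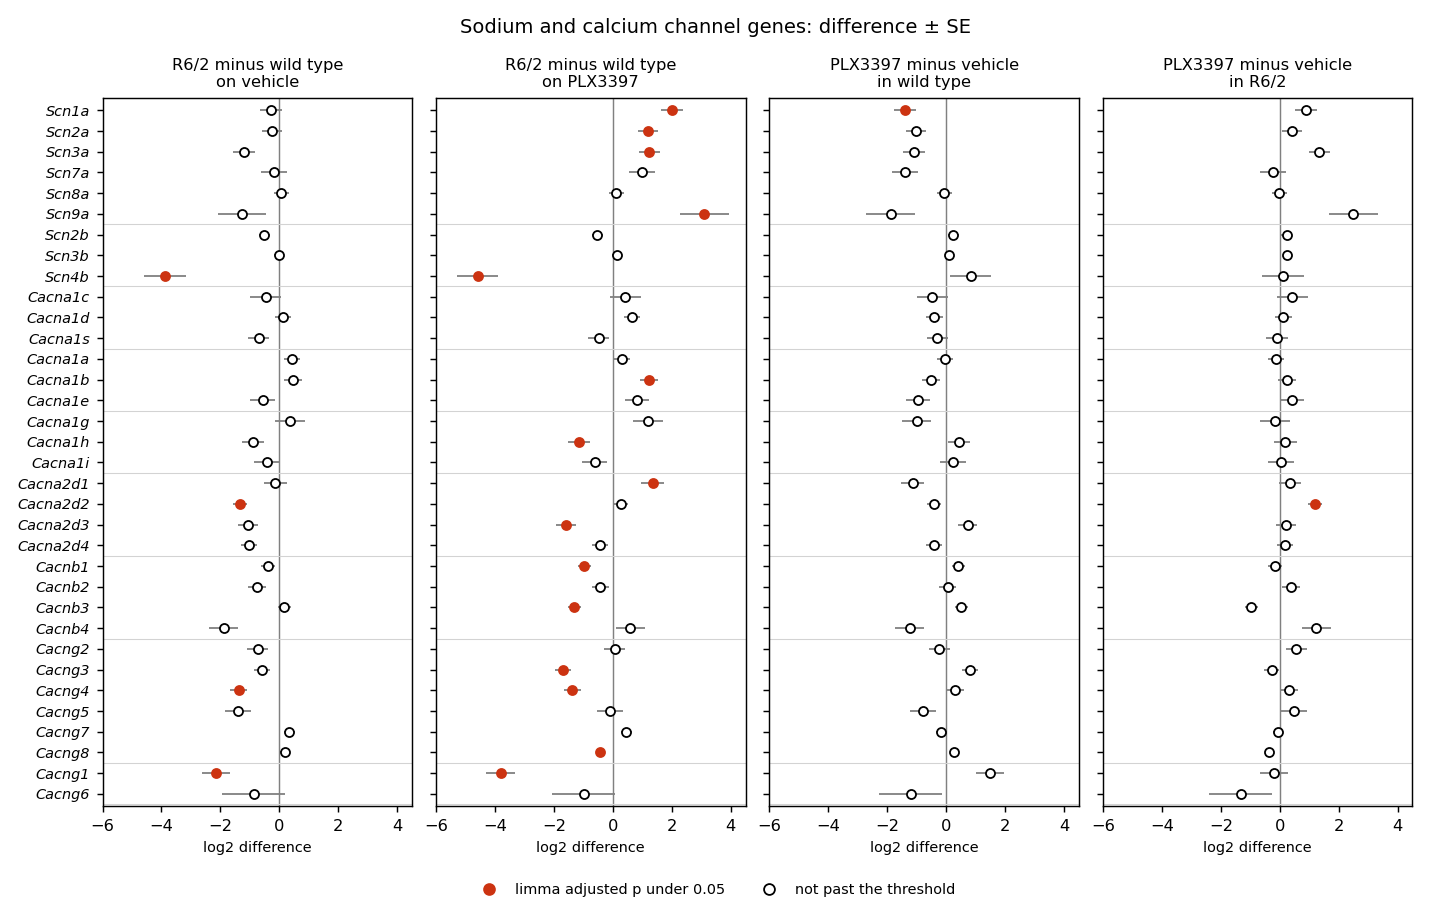
Log2 difference ± SE (horizontal axes) of 34 of the 36 channel genes (vertical axis) in 4 comparisons, from the limma fit over 12 libraries, with filled points for genes at an adjusted p under 0.05. Scn4b is lowest in both genotype comparisons, at -3.87 and -4.59.

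With PLX3397 in wild-type mice 1 member fell, Scn1a, the sodium pore prominent in fast-spiking interneurons. Of 36 members 0 were called higher and 1 lower, where 14.2% of all genes were called, 5.93% higher and 8.3% lower. Scn1a was at 7.57, 7.66 and 7.02 log2 CPM in wild type on vehicle and 5.64, 5.63 and 6.83 in wild type on PLX3397, and at 6.51, 7.85 and 7.08 and 8.16, 8.19 and 7.79 in R6/2 on vehicle and PLX3397. Its values did not overlap between the wild-type groups, and it fell by 1.39 ± 0.37 (limma adjusted p = 0.0351, 2.61-fold). That call ended without wild-type vehicle library 1 (0.122) or 2 (0.122), R6/2 vehicle library 3 (0.0516) or drug-treated wild-type library 1 (0.0686) or 2 (0.0954), without the R6/2 PLX3397 pair, and after removal of the GC and length trend (-0.48, adjusted p = 0.286). The differences of Scn1a, Scn2a, Scn3a, Scn7a, Scn8a and Scn9a were all below 0, from -1.88 for Scn9a to -0.06 for Scn8a. Over all members 8 lay entirely lower and 3 entirely higher on the drug in wild type, against 17.3% and 18.8% of all genes.

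Between the genotypes on PLX3397, 4 of 7 sodium pores were higher in R6/2, and Scn4b, Cacna2d3 and Cacnb3, the most abundant gene of each of their roles, were lower. Called members numbered 6 higher and 9 lower of 36, where 35.0% of all genes were called, 17.1% higher and 17.9% lower. The higher ones were 4 of 7 sodium pores, 1 of 3 Cav2 pores and 1 of 4 alpha2delta subunits. The lower ones were 3 of 6 TARPs, 2 of 4 calcium channel beta subunits and 1 each of the sodium beta, alpha2delta, T-type pore and non-TARP gamma genes. Entirely separate libraries were seen for 8 higher and 11 lower members, where 22.6% and 24.2% of all genes lay so. This comparison and the interaction share the PLX3397 libraries with the drug comparisons, so their values are given side by side and not as separate support.

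Scn1a was 2.02 ± 0.37 higher in R6/2 on PLX3397 (limma adjusted p = 0.00309). Averaged over the drug it was 0.87 ± 0.26 higher (adjusted p = 0.0363), a call that ended with any of 9 libraries left out (0.0542 to 0.0793) and held without wild-type PLX3397 library 3, R6/2 vehicle library 1 or R6/2 PLX3397 library 3. Scn2a, the pore of the initial segment, was at 8.38, 8.50 and 8.15 log2 CPM in wild type on vehicle, 6.58, 7.40 and 7.98 in wild type on PLX3397, 7.40, 8.53 and 8.34 in R6/2 on vehicle and 8.44, 8.66 and 8.43 in R6/2 on PLX3397. Only the drug-treated wild-type libraries were all under 8 log2 CPM, and on PLX3397 Scn2a was 1.19 ± 0.34 higher in R6/2 (adjusted p = 0.0217). Scn3a, a pore best known from the developing brain, was at 6.81, 6.58 and 5.88 log2 CPM in wild type on vehicle, 5.25, 4.94 and 5.78 in wild type on PLX3397, 4.61, 5.32 and 5.72 in R6/2 on vehicle and 6.46, 7.21 and 6.02 in R6/2 on PLX3397. The wild-type vehicle and R6/2 PLX3397 libraries were the higher ones and both other groups the lower, with 1.24 ± 0.37 between the genotypes on the drug (adjusted p = 0.0252). Scn9a, a pore of sensory neurons, was at 3.99, 2.48 and 3.04 log2 CPM in wild type on vehicle, 0.10, 2.32 and 1.44 in wild type on PLX3397, 2.45, 1.21 and 2.02 in R6/2 on vehicle and 4.60, 6.08 and 2.49 in R6/2 on PLX3397. Its levels in R6/2 on PLX3397 were spread over more than 3 log2 units, with library 2 highest, and the difference was 3.10 ± 0.82 (adjusted p = 0.0154). Scn8a, the pore of nodes of Ranvier, was between 7.75 and 8.81 log2 CPM in every library, and its 6 differences were not called. On chromosome 2 lie the sodium pores Scn3a, Scn2a, Scn1a, Scn9a and Scn7a, in that order, whereas Scn8a lies on chromosome 15. The gap between Scn2a and Scn1a is 503333 bases, and the other gaps are 38311 to 53172 bases.

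**Figure D4:**
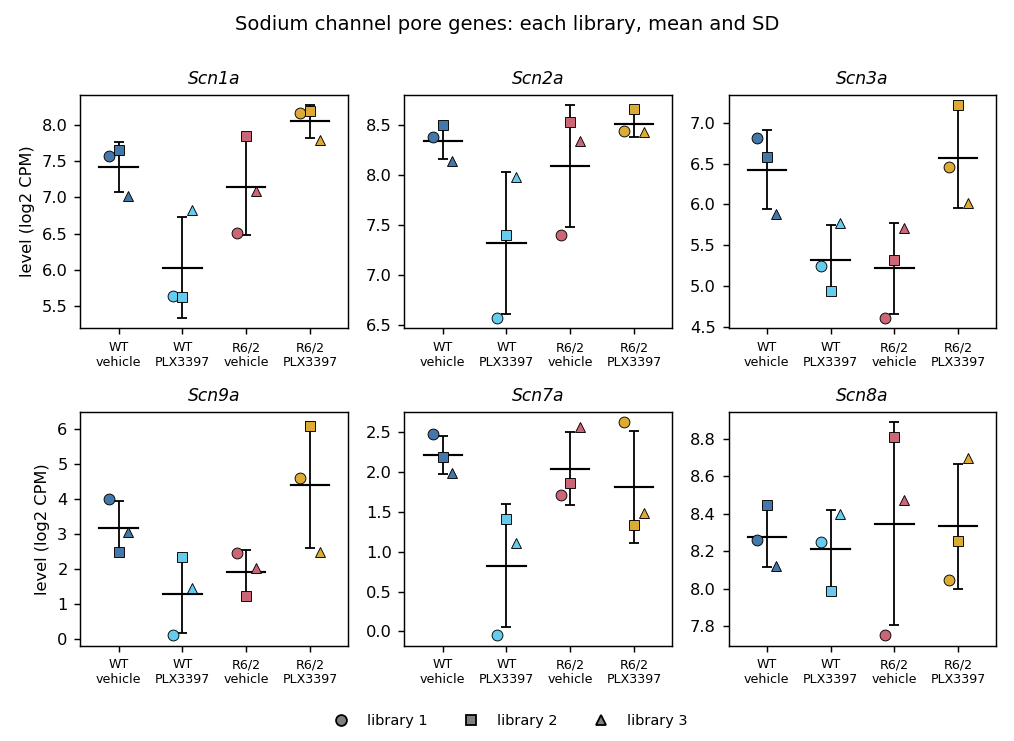
Log2 CPM (vertical axes) of 6 sodium channel pore genes in each of the 12 libraries (points) by group (horizontal axes), with the group mean and SD. Scn1a, Scn2a, Scn3a and Scn9a have their lowest library in a drug-treated wild-type or vehicle-treated R6/2 mouse, and Scn8a stays within 7.75 to 8.81.

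Leaving out libraries changed several of these pore calls. The call of Scn2a on PLX3397 ended without drug-treated wild-type library 1 or drug-treated R6/2 library 1 or 2 (limma adjusted p 0.0536 to 0.0677), that of Scn3a without drug-treated wild-type library 1 or 2 or drug-treated R6/2 library 1 or 2 (0.0512 to 0.0976) and that of Scn9a without R6/2 PLX3397 library 1 or 2 (0.0502 to 0.0567). That of Scn1a held without each single library. Without R6/2 PLX3397 libraries 1 and 2 together, both low in Slc17a7, 1 member was called between the genotypes on PLX3397, Cacng1 (adjusted p = 0.0273), 0 were called in the interaction, and 6 were called averaged over the drug, namely Scn4b, Cacna2d2, Cacna2d3, Cacng1, Cacng3 and Cacng4. The 12 cortical excitatory markers, all measured and none at 0, summed to 167 and 158 CPM in those 2 libraries and to 1111 in the other of the group, and to 454 to 966 in wild type on vehicle. The part of this difference in the pore results was not tested.

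Among the calcium channel pores, Cacna1b and Cacna1h were called, on PLX3397 and averaged over the drug. Cacna1b, the N-type pore, was at 6.48, 6.59 and 6.74 log2 CPM in wild type on vehicle, 6.68, 5.35 and 6.20 in wild type on PLX3397, 6.43, 7.34 and 7.38 in R6/2 on vehicle and 7.33, 7.24 and 7.31 in R6/2 on PLX3397. On the drug all R6/2 values were above all wild-type values, with 1.22 ± 0.31 (limma adjusted p = 0.0134), and averaged over the drug the difference was 0.84 ± 0.22 (adjusted p = 0.0216). The averaged call ended without wild-type vehicle library 1 or R6/2 vehicle library 2 or 3 (0.0528 to 0.0561). Cacna1a was at 6.96, 7.03 and 7.02 log2 CPM in wild type on vehicle, 7.37, 6.45 and 7.11 in wild type on PLX3397, 6.91, 7.91 and 7.47 in R6/2 on vehicle and 7.07, 7.17 and 7.63 in R6/2 on PLX3397. The groups overlapped, and the averaged difference of 0.37 ± 0.19 was not called (adjusted p = 0.191). Cacna1d, an L-type pore that opens at low voltage, was at 5.89, 5.75 and 5.81 log2 CPM in wild type on vehicle, 5.69, 4.93 and 5.64 in wild type on PLX3397, 5.28, 6.23 and 6.33 in R6/2 on vehicle and 5.83, 6.09 and 6.29 in R6/2 on PLX3397. Its R6/2 libraries on the drug lay above the wild-type ones, without a call (0.65 ± 0.28, adjusted p = 0.0858). Cacna1h, a T-type pore, was at 7.10, 7.13 and 6.52 log2 CPM in wild type on vehicle, 8.26, 6.70 and 7.11 in wild type on PLX3397, 6.14, 5.52 and 6.37 in R6/2 on vehicle and 5.82, 6.58 and 6.22 in R6/2 on PLX3397. It fell by 1.15 ± 0.37 in R6/2 on PLX3397 (adjusted p = 0.0349) and by 1.03 averaged over the drug (0.0194). On PLX3397 its difference shrank to -0.70 without wild-type PLX3397 library 1, its highest library, where the call ended, as it did without R6/2 PLX3397 library 1 or 3 (0.0690 to 0.119).

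The cytoplasmic beta subunits of calcium channels moved apart from each other. Cacnb3 was at 7.58, 7.25 and 7.39 log2 CPM in wild type on vehicle, 7.83, 7.84 and 8.08 in wild type on PLX3397, 7.38, 7.79 and 7.55 in R6/2 on vehicle and 6.30, 6.32 and 7.20 in R6/2 on PLX3397. It was highest in drug-treated wild type and lowest in drug-treated R6/2, and between these groups it fell by 1.31 ± 0.22 (limma adjusted p = 0.00206). Its fall averaged over the drug was 0.57 (adjusted p = 0.0246), a call that ended without wild-type vehicle library 1, wild-type PLX3397 library 3, R6/2 vehicle library 3 or R6/2 PLX3397 library 1 or 2 (0.0510 to 0.0627). Cacnb1 was at 6.67, 6.77 and 6.62 log2 CPM in wild type on vehicle, 7.55, 6.55 and 7.20 in wild type on PLX3397, 5.99, 6.43 and 6.44 in R6/2 on vehicle and 5.86, 6.21 and 6.32 in R6/2 on PLX3397. The genotypes did not overlap, and it fell by 0.97 ± 0.23 on PLX3397 (adjusted p = 0.00976) and by 0.68 averaged over the drug (0.0139). Cacnb4, the subunit altered in lethargic mice, was at 8.45, 8.13 and 7.11 log2 CPM in wild type on vehicle, 6.06, 6.69 and 7.20 in wild type on PLX3397, 5.26, 6.53 and 6.22 in R6/2 on vehicle and 6.50, 8.18 and 7.07 in R6/2 on PLX3397. It was high in wild type on vehicle and low in R6/2 on vehicle without overlap, yet that difference of -1.89 ± 0.50 was not called (adjusted p = 0.0721). Cacnb4 made up 20.7% ± 6.28 (SD, n = 3) of calcium beta subunit RPKM in wild type on vehicle, 7.77% ± 2.78 in wild type on PLX3397, 7.08% ± 2.03 in R6/2 on vehicle and 21.2% ± 10.7 in R6/2 on PLX3397. Of its exon bases 16.0% are also covered by the antisense gene A430018G15Rik, and whether strand was used in counting is not given in the sources used here.

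The effect of PLX3397 differed between the genotypes for 6 members, 5 with a higher and 1 with a lower interaction, where 17.0% of all genes were called, 9.29% higher and 7.71% lower. Beside Cacna2d2, the higher ones were Scn9a at 4.38 ± 1.17 (limma adjusted p = 0.0313), Cacnb4 at 2.49 ± 0.70 (0.0367), Scn3a at 2.45 ± 0.53 (0.0181) and Scn1a at 2.29 ± 0.53 (0.0211). Cacnb3 was lower, at -1.48 ± 0.31 (0.0175). Scn4b was not called in the interaction (-0.71 ± 1.00, 95% interval -2.91 to 1.48, adjusted p = 0.631). The sodium pores Scn7a, Scn2a and Scn8a were not called in the interaction, with values of 1.16, 1.44 and 0.05. The interaction of Scn9a ended without wild-type vehicle library 1 or 2, any 1 R6/2 vehicle library or R6/2 PLX3397 library 1 or 2, and that of Cacnb4 without those but R6/2 vehicle library 2 and R6/2 PLX3397 library 1, and also without wild-type PLX3397 library 1 or 2. The Scn1a interaction was lost without wild-type vehicle library 1 or 2 and without drug-treated R6/2 library 1 or 2, that of Scn3a without wild-type vehicle library 1 or 2, and that of Cacnb3 without wild-type vehicle library 2, with adjusted p of 0.0504 to 0.0917 over these cases.

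Transcript GC content moved with the drug differences. The members under 45% GC, a limit set after their values were seen, were Cacna2d1, Cacnb4, Scn1a, Scn2a, Scn3a, Scn7a and Scn9a (40.2% to 43.4%). Their median difference with PLX3397 in wild type was -1.25 (-1.88 to -1.02), against -0.03 for the other 29 members. In R6/2 it was 0.90 against 0.12, and in the interaction 2.29 (1.16 to 4.38) against 0.05. Across all genes with a known GC content, which are not independent of each other, Spearman's rho of the difference with GC was 0.548 for the drug in wild type, -0.486 for the drug in R6/2 and -0.585 for the interaction, over 14305 genes that share the same libraries. After the trend with GC and length was taken out of each library, the 7 had medians of -0.15 with the drug in wild type and 0.79 in the interaction, and 1 of the 6 interaction calls was left, Cacna2d2 (1.52, limma adjusted p = 0.0409). Between the genotypes on PLX3397 that removal ended the calls of Scn2a (0.23, adjusted p = 0.524), Scn3a (0.18, 0.552), Scn9a (2.05, 0.0837), Cacna2d1 (0.34, 0.349), Cacnb1 (-0.55, 0.122) and Cacng8. Those of Scn1a (1.09, 0.0155), Scn4b, Cacna1b, Cacna1h, Cacna2d3, Cacnb3, Cacng1, Cacng3 and Cacng4 held. Averaged over the drug the removal ended the calls of Cacnb3 (-0.34, adjusted p = 0.121) and Cacnb1 (-0.49, 0.0546), while Cacnb2 (-0.68, 0.0249) and Cacnb4 (-0.88, 0.0150) became called. The part of GC content in the differences was not tested further.

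**Figure D5:**
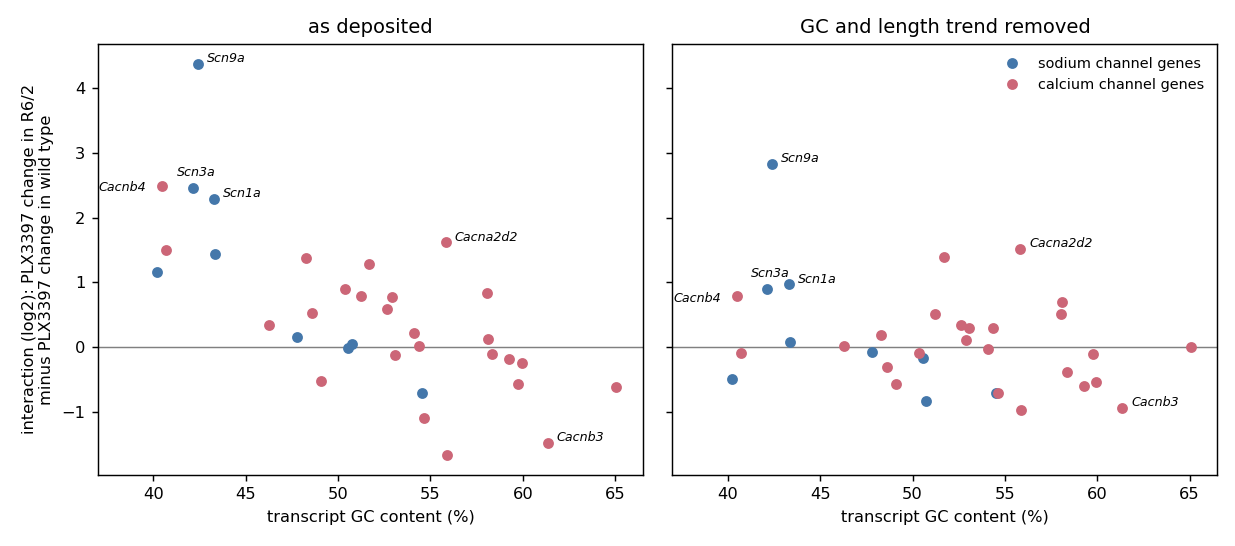
Interaction of genotype and PLX3397 (log2, vertical axes) of 34 of the 36 channel genes (points) against transcript GC content in percent (horizontal axes), as deposited (left) and with the GC and length trend of each library removed (right). The 7 genes under 45% GC lie at 1.16 to 4.38 on the left and at -0.49 to 2.83 on the right, while Cacna2d2 stays at 1.62 and 1.52.

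Genes that work with these channels were followed through 4 lists of partners. Of 20 sodium channel partners, such as ankyrins and contactins, 0 were called on vehicle (2.11% of all genes were) and 3 fell with PLX3397 in wild type, where 14.2% of all genes were called: Ptprz1, a receptor phosphatase that binds sodium channels, by 1.66 ± 0.22 (limma adjusted p = 0.00237), the adhesion molecule Cntn1 by 1.02 ± 0.22 (0.0189) and Ank2 by 0.68 (0.0431). Ptprz1 had an interaction of 2.23 ± 0.32 (0.0139), and markers of oligodendrocyte precursors, cells known to express it, summed to 482 to 548 CPM in wild type on vehicle, 270 to 299 in wild type on PLX3397, 359 to 496 in R6/2 on vehicle and 378 to 473 in R6/2 on PLX3397 (10 of 10 measured, none at 0). Their part was not tested. Between the genotypes on PLX3397, 4 of the 20 were higher and 5 lower, where 17.1% of all genes were higher and 17.9% lower.

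Of 19 measured calcium channel partners 0 were called on vehicle (2.11% of all genes were), and 1 was higher and 5 lower in R6/2 on PLX3397, together 31.6% of the list against 35.0% of all genes. Without a call, 10 of the 19 had R6/2 vehicle libraries entirely below the wild-type ones and 1 entirely above (17.1% and 16.4% of all genes). For the 20 sodium channel partners these numbers were 5 and 3. Rem2, a GTPase that inhibits calcium channels, fell by 2.50 ± 0.42 (limma adjusted p = 0.00210) in R6/2 on PLX3397. In the same comparison Camk2b, a calmodulin kinase, fell by 1.33 ± 0.20 (0.00134). Averaged over the drug, 0 were higher and 8 lower, where 10.5% of all genes were higher and 11.9% lower. Among 15 AMPA receptor subunits and auxiliary proteins, the receptors the TARPs escort, 1 fell on vehicle, where 1.49% of all genes were called lower. It was Gsg1l, an auxiliary subunit, which fell by 1.72 ± 0.36 (0.0405). On vehicle 8 of the 15 had R6/2 libraries entirely below the wild-type ones and 2 entirely above. On PLX3397 Gsg1l fell by 2.75 ± 0.36 (0.000701), with 2 genes of the list higher and 6 lower, where 35.0% of all genes were called. In the average over the drug 0 of the 15 were higher and 7 lower, where 22.4% of all genes were called, 10.5% higher and 11.9% lower. Gria4, a receptor pore, had an interaction of 2.05 ± 0.45 (0.0185).

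Of 23 measured genes for calcium release, pumps and buffers, 1 fell on vehicle, where 1.49% of all genes were called lower. It was Ryr1, a calcium release channel of the endoplasmic reticulum, which fell by 3.64 ± 0.51 (limma adjusted p = 0.0161). Averaged over the drug it fell by 3.47 ± 0.36 (0.000241), and 1 gene of the list was higher and 4 were lower, a share of 21.7% against 22.4% of all genes. In size Ryr1 was near Scn4b, and its fall too was seen on PLX3397 (3.29 ± 0.51, 0.00136). Itpr2, an inositol trisphosphate receptor, fell with the drug in wild type by 1.37 ± 0.28 (0.0157).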

How the data were processed

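RNA from the striatum of 12 mice, 3 per group, had been made into Illumina libraries, per the labels' protocols. STAR, featureCounts, edgeR and limma with the mm10 build are named in the submitters' processing notes, without versions, and strandedness is not given in the sources used here. The deposited table is named for RPKM, but the authors' values were log2 CPM: in all libraries the lowest value was the same, and 100% of values gave whole reads within 0.1 read after a prior of 2 reads on average (1.65 to 2.41) was taken off. The values were used as deposited, so edgeR and DESeq2 were not run as tests, and recovered reads served for depth (18902120 to 24293208 per library), RPKM and limma-voom. Depth limits only members with few reads, since replicates (r = 0.938 to 0.986, chi-square per degree of freedom 15.5 to 149) varied far above counting error.

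Groups were compared with limma 3.58.1 (R 4.3.3) in 1 fit of the 4 group means over 12 libraries, with an intensity trend, a two-sided moderated test and Benjamini-Hochberg adjustment over 15397 genes. The fit was also run on simulated data with the same spread for every gene and no effects shared within a library. That run cannot tell how the fit does with the library differences seen here. Of these genes 15078 matched RefSeq on GRCm38 for positions, and 14305 (92.9%), with 36 of 36 members, had a length and GC content of their transcripts, taken from GENCODE M21. Promoter windows came from RefSeq on GRCm38.p6, and Scn2b was added to them after its values were seen. Values of 2 members are not reported here, and counts over members include them.

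The channel genes, partner lists and marker lists were chosen with earlier results of these data known. Values in every library are given for Scn4b, Cacna2d2, every called member and the most abundant member per length of each role, and for a few others by range. Up to 3 genes of a partner list with the smallest adjusted p in a comparison were named. Alternatives were leaving out each library, the R6/2 PLX3397 pair 1 and 2, or the choroid-high pair (spread pooled over all groups), a replicate block, only the groups compared, a rescaling by median of ratios, priors of 0.5 and 5 reads, a minimum of 1 CPM in 3 libraries, limma-voom, and removal of a GC and length trend (splines with 5 degrees of freedom). Python 3.11.15 with pandas 2.3.3, numpy 2.4.6, matplotlib 3.10.9 and scipy 1.17.1 served for tables and plots.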

Additional observations from a re-analysis of the deposited data

Results flagged for a closer look

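The drug's difference was not the same in both genotypes for 6 channel genes, by a test of the difference itself (limma interaction term, Benjamini-Hochberg adjusted over all genes). Those 6 of 36 are near the background, since 17.0% of all genes were called in the interaction. Cacna2d2 had an interaction of 1.62 (adjusted p = 0.0156), with all R6/2 vehicle libraries below every other library. Scn1a had one of 2.29 (0.0211), Scn3a of 2.45 (0.0181), Scn9a of 4.38 (0.0313) and Cacnb4 of 2.49 (0.0367), and these 4 transcripts are low in GC. Cacnb3, a transcript rich in GC, had one of -1.48 (0.0175). With the GC and length trend removed the call of Cacna2d2 was the 1 that held.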

How the results depend on the processing

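Channel genes called were 4 for R6/2 against wild type on vehicle, 1 for PLX3397 in wild type, 1 for PLX3397 in R6/2, 15 for R6/2 against wild type on PLX3397, 14 averaged over the drug and 6 in the interaction. Leaving out 1 library at a time gave 0 to 5, 0 to 3, 0 to 3, 10 to 18, 9 to 15 and 1 to 9, in that order, with the lowest interaction count without wild-type vehicle library 2. With the replicate number as a block (replicate block) the counts were 0, 0, 0, 14, 11 and 5. Over 18 pairs the deviations of libraries with the same number correlated at -0.321 to 0.396, with 3 pairs over 0.1. The highest was between library 1 of R6/2 on vehicle and library 1 of R6/2 on PLX3397. Libraries with different numbers were not set beside these, so the check cannot tell whether the numbers mark pairs or a shared batch. Fitting only the groups compared gave 3, 0, 0 and 11 for the 4 pairs of groups. Without R6/2 PLX3397 libraries 1 and 2 the counts were 3, 0, 0, 1, 6 and 0, and without the choroid-high pair 0, 5, 0, 17, 17 and 5. After removal of the GC and length trend they were 6, 0, 1, 11, 14 (without Cacnb1 and Cacnb3, with Cacnb2 and Cacnb4) and 1, and this also turned Cacng8 on PLX3397 to 0.17. On vehicle limma-voom gave 2, and with a prior of 5 reads PLX3397 in wild type gave 2. The counts under a rescaling by median of ratios and a minimum of 1 CPM were those first given. The cause of these changes was not tested, beyond the fewer libraries in some fits. Few reads limit Cacng1, Cacng6 and Cacna1s.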
